A study of Mus musculus with 20 samples.

Results

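The 10 circadian clock genes described here are *Arntl*, *Npas2*, *Per1*, *Per2*, *Per3*, *Cry1*, *Nr1d1*, *Nr1d2*, *Dbp* and *Tef*. They were chosen by name, with earlier results of these data known, as transcription factors and repressors of the clock. The choice was from 46078 genes counted in mouse liver by bulk mRNA sequencing. The study asked how mice that lack cystathionine γ-lyase (CSE, encoded by *Cth*), the enzyme that makes cysteine from cystathionine, respond when a diet without cysteine is compared with a diet without tryptophan. Livers came from day 2 of the diets, from mice on a 129/C57BL/6 background that were at least 9 weeks old when the diets began, and all diets were versions of the same defined amino acid diet. The study describes its tissue sequencing mice as males on restricted amounts of food, first of the complete diet and then of the test diets, control mice included, whereas the sample labels do not give the amount of food. *Cse*+/- mice, which the sample labels call WT and the study's list of mice calls heterozygous, received the complete control diet (n = 2), the diet without tryptophan (no-Trp, n = 3) or the diet without cysteine (no-Cys, n = 4). *Cse*-/- mice received no-Trp (n = 3), no-Trp with L-buthionine sulfoximine (BSO), an inhibitor of glutathione synthesis (n = 4), or no-Cys (n = 4). A *Cse*-/- group on the control diet was not analysed here, so the genotype was compared only within a deficient diet.

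The clock is a loop of transcription and repression that runs in nearly every cell. BMAL1 (encoded by *Arntl*) pairs with CLOCK or NPAS2, binds E-box elements and activates the *Per*, *Cry*, *Nr1d* and *Dbp* genes. PER and CRY proteins then repress that activator, and the nuclear receptors REV-ERBα and REV-ERBβ (*Nr1d1* and *Nr1d2*) repress *Arntl*, *Npas2* and *Cry1*. In the liver these mRNAs rise and fall steeply over a day, they are set by meal times as well as by light, and DBP and TEF pass the rhythm on to genes of drug, bile acid and lipid metabolism. A single liver therefore shows 1 point of the cycle. The hour at which each liver was collected and the time since the last meal are not given in the sources used here. In another experiment of the study, food was handed out in the early afternoon. Mouse numbers run in blocks by group, so an order of collection along those numbers, the hour, the last meal and the diet cannot be told apart.

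Libraries held between 11785740 and 57986121 counts on genes. *Cth* was at 88.4 to 332 counts per 1e6 counts on genes (CPM, scaled with TMM factors) in *Cse*+/- livers and at 6.37 to 14.4 CPM in *Cse*-/- livers, with no overlap. Over all tested genes, 17 of 20 libraries were nearest to the mean of their own group. The other 3 were 2 of the 3 *Cse*-/- no-Trp mice (av14 and av15) and 1 *Cse*-/- no-Trp + BSO mouse (av10), so the results on those groups are also given without them. Mouse av01 (*Cse*+/- no-Cys) had the highest *Cth* level, 332 CPM against 121 to 132 CPM in the other 3 of its group. Summed CPM of 4 hepatocyte markers were 104652 to 105595 in control livers and 37271 to 64601 in *Cse*-/- no-Cys livers. Summed markers of exocrine pancreas reached at most 0.776 CPM. Summed markers of fat cells (*Adipoq*, *Plin1* and *Lep*) were at 3.70 CPM in av17 (*Cse*+/- no-Trp) and 1.99 CPM in av14 (*Cse*-/- no-Trp) and at most 0.212 CPM in the other 18 libraries, with *Lep* at 0 in all.

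Per kilobase of exon, *Dbp* and *Tef* were the most abundant of the 10, at a mean over the 6 groups of 37.5 and 35.6 CPM per kb. *Nr1d2* (22.1), *Nr1d1* (18.8), *Per1* (16.2) and *Per2* (10.4) followed on that scale, then *Per3* (6.38) and *Cry1* (4.88). The activators were the scarcest, with *Arntl* at 0.163 and *Npas2* at 0.0408 CPM per kb. *Npas2* (chr1:39193731-39363236) was at 0 to 0.516 CPM, with 88 counts in all 20 libraries and none in 2 of them, so it did not pass the filter on low counts and was not tested. The other 9 were tested with edgeR's quasi-likelihood test, and a gene was called where its p-value, adjusted over all 14759 genes tested, fell below 0.05. A test for any difference among the 6 groups called 8 of the 9, where it called 33.4% of all genes. *Nr1d1* ranked 38th by p (adjusted p = 1.08e-06), *Dbp* 46th (1.63e-06) and *Cry1* 140th (1.84e-05), and *Per1* was the gene not called (0.175). Their levels spread unequally. From the lowest to the highest group mean, *Arntl* spanned 7.08 times, *Nr1d1* 5.84, *Cry1* 3.96 and *Dbp* 3.28, whereas *Tef* spanned 1.26 and *Per2* 1.40.

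**Figure D1:**
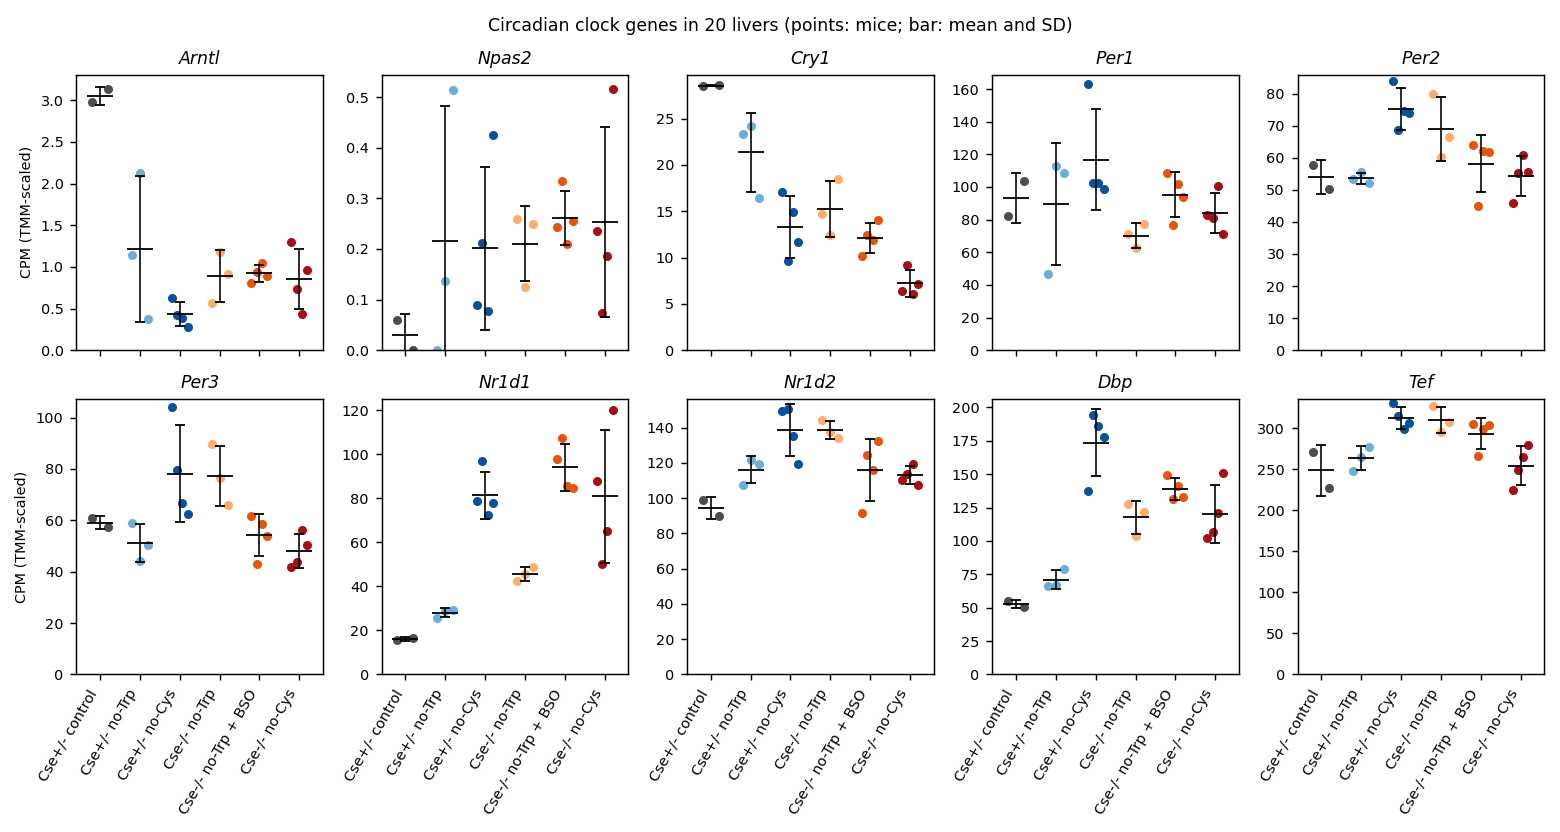
CPM (linear axes from 0) of the 10 clock genes in each liver, with 1 point per mouse, the group mean as a horizontal bar and the SD as whiskers, cut at 0. *Nr1d1* and *Dbp* are lowest in *Cse*+/- control livers, *Cry1* and *Arntl* are highest there, and *Tef* lies between 224 and 330 CPM throughout.

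Promoter windows are shown for the 4 tested genes with the widest spread of group means and for those called between genotypes on no-Cys, whether or not they hold the clock elements searched for. Windows of 300 bases around the RefSeq start were taken on GRCm38.p6 for 9 of the 10 genes, 12 windows in all. *Per2* had no entry. Both strands were searched for the E-box CACGTG, the related CACGTT, the D-box sequences TTATGTAA and TTACGTAA, and TAGGTCA and TGGGTCA, which REV-ERB proteins recognise, and no matches overlapped. Capitals mark the matches, and AACGTG is CACGTT read from the other strand. *Nr1d1* (chr11:98775328-98775627, minus strand) holds 1 CACGTT, *Cry1* (chr10:85185005-85185304, minus strand) holds CACGTG and CACGTT, *Per3* (chr4:151044616-151044915, minus strand) holds TTATGTAA at 2 places, and the second *Arntl* window (chr7:113207261-113207560, plus strand) holds TAGGTCA. The first *Tef* window (chr15:81802423-81802722, plus strand) holds CACGTG, and those of *Dbp* (chr7:45704997-45705296, plus strand) and *Nr1d2* (chr14:18239057-18239356, minus strand) hold none of these letters.
Nr1d1: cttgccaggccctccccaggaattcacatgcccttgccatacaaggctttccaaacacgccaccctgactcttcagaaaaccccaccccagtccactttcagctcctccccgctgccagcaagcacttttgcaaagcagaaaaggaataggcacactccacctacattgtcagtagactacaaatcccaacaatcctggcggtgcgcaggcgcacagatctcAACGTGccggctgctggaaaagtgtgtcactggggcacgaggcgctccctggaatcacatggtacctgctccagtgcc
Cry1: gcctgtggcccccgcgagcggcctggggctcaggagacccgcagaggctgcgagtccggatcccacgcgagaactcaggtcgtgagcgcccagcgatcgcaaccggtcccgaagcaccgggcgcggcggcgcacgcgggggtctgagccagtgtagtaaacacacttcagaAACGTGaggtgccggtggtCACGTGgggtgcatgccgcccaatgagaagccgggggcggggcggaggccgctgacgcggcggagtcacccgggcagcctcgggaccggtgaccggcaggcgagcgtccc
Per3: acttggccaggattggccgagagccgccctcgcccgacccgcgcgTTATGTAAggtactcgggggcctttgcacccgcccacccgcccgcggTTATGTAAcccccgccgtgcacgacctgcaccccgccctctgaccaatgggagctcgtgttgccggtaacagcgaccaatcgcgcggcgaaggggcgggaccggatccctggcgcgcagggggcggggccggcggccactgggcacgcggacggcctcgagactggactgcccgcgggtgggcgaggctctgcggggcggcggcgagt
Arntl: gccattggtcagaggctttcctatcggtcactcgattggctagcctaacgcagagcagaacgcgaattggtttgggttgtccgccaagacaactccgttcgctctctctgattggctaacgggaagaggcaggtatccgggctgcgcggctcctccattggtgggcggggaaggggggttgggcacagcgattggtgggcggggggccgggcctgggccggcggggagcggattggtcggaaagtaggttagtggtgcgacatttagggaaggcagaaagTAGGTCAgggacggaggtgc
Tef: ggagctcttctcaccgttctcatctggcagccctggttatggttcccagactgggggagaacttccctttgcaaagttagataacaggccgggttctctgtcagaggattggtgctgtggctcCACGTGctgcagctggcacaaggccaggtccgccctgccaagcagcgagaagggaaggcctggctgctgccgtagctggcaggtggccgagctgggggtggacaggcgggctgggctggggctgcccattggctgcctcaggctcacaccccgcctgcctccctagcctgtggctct
Dbp: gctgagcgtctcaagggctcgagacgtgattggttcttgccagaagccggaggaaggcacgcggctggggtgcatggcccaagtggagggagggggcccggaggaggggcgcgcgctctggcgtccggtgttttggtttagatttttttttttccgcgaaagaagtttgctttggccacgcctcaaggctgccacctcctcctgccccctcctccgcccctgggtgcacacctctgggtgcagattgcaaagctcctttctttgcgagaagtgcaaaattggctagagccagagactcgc
Nr1d2: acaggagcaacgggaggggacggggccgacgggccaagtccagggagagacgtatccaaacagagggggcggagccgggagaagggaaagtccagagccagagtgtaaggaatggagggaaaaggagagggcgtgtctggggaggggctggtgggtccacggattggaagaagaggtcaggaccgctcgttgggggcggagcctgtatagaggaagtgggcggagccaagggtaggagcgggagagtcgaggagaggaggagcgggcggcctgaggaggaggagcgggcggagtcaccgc
CACGTG was also found in 1 of 2 *Per1* windows and in the other *Tef* window. The *Npas2* window, like those of *Dbp* and *Nr1d2*, holds none, which says only that these stretches lack these letters. Of 32851 such windows over all genes, 7.15% hold CACGTG, 4.68% CACGTT, 0.938% TTATGTAA, 0.119% TTACGTAA, 2.61% TAGGTCA and 3.98% TGGGTCA.

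Diet was first compared within *Cse*+/- mice, which can make cysteine. On no-Cys, *Nr1d1*, *Dbp* and *Nr1d2* rose and *Arntl* and *Cry1* fell against the control diet, 5 of 9 genes called where 2.18% of all genes were. The median log2 difference of the 9 was 0.40, against 0.011 over all genes. DESeq2, which called 607 of 13897 genes, called 7 of the 9, adding *Per2* (0.48, adjusted p = 0.0393) and *Tef* (0.33, adjusted p = 0.0349), both higher. The bile duct marker *Krt7* was also called lower by edgeR, from a mean of 1.86 to 0.765 CPM, and its part was not tested. *Nr1d1*, the repressor REV-ERBα (chr11:98767932-98775333), was at 15.6 and 16.6 CPM in the 2 control livers. It was at 72.2, 77.8, 78.9 and 96.8 CPM in the 4 no-Cys livers. Every no-Cys liver lay above both controls, and the difference was 2.34 ± 0.25 (SE) on the log2 scale, or 5.05-fold (adjusted p = 7.97e-05 by edgeR, here and below). *Dbp*, an activator of rhythmic output genes (chr7:45705088-45710203), was at 50.8 and 55.0 CPM in the controls and at 137, 178, 186 and 194 CPM on no-Cys. These values did not overlap either, and the log2 difference was 1.71 ± 0.16 (3.28-fold, adjusted p = 2.52e-05). *Nr1d2*, the related receptor REV-ERBβ (chr14:18204054-18239127), differed less, by 0.56 ± 0.13 (adjusted p = 0.0247), with 89.9 and 98.7 CPM in the controls and 119 to 150 CPM on no-Cys.

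The activator and the late repressor moved the other way. *Arntl* (chr7:113207465-113314126) had 45 and 50 counts in the control livers, or 3.13 and 2.97 CPM. In the 4 no-Cys livers it had 4 to 7 counts, or 0.283, 0.389, 0.423 and 0.631 CPM. The ranges did not overlap and the log2 difference was −2.83 ± 0.49 (0.141 times the control level, adjusted p = 0.00582), with few counts behind the lower values. *Cry1*, a repressor of the activator (chr10:85131700-85185064), was at 28.6 CPM in both controls and at 9.60, 11.7, 14.9 and 17.0 CPM on no-Cys (log2 difference −1.11 ± 0.21, adjusted p = 0.00866). Without the control mouse av22, which leaves 1 control liver, *Arntl* (−2.80), *Cry1* (−1.11) and *Nr1d2* (0.49) differed by about as much but were no longer called. That fit called fewer genes of all kinds, so a call lost there says little of a single gene. *Nr1d1* and *Dbp* were still called. *Nr1d2* also lost its call without av21, which again leaves 1 control liver, without av02 (adjusted p = 0.0675) and with only the 2 groups fitted (0.0777).

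On no-Trp, the same *Cse*+/- genotype showed no called clock gene against the same 2 control livers. By edgeR it was 0 of 9, where 0.0474% of all genes were called, and 0 by DESeq2, which called 60 of 13040 genes. At an unadjusted p under 0.05 there were 4, *Nr1d1*, *Dbp*, *Arntl* and *Nr1d2*, where 9.29% of all genes were. *Nr1d1* was at 25.7, 29.0 and 29.2 CPM, above both controls, with a log2 difference of 0.80 ± 0.24 (adjusted p = 0.285). *Dbp* was at 66.6, 67.2 and 79.0 CPM, also above both (0.42 ± 0.16, adjusted p = 0.422), as was *Nr1d2* at 107, 119 and 122 CPM (0.30 ± 0.13, adjusted p = 0.499). *Cry1* (16.5, 23.4 and 24.2 CPM) and *Arntl* (0.374, 1.14 and 2.13 CPM) lay below both, with adjusted p of 0.578 and 0.371. With so few livers, lying above or below both controls is easily reached by chance, and the share of all genes that did was not counted.

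The 2 deficient diets were also compared directly in *Cse*+/- mice, with no control livers involved. The no-Cys livers are shared with the comparison above. *Nr1d1*, *Dbp*, *Per3* and *Per2* were higher on no-Cys and *Arntl* and *Cry1* were lower, 6 of 9, where 8.04% of all genes were called. The endothelial markers *Lyve1* and *Pecam1* were also called lower on no-Cys, and their part was not tested. *Nr1d1* differed by 1.54 ± 0.20 on the log2 scale (2.91-fold, adjusted p = 0.000369) and *Dbp* by 1.29 ± 0.14 (2.45-fold, adjusted p = 4.72e-05), and neither pair of groups overlapped. *Per3* (0.62 ± 0.17, adjusted p = 0.0291) and *Per2* (0.49 ± 0.13, adjusted p = 0.0222) encode period proteins, which repress the activator with CRY. *Arntl* (−1.59 ± 0.48, adjusted p = 0.0457) and *Cry1* (−0.69 ± 0.19, adjusted p = 0.0301) overlapped between the diets. *Nr1d1* and *Dbp* were called whichever single mouse was left out, and the other 4 were not. Without av19, 2 of 9 were called, and *Arntl* stood at −0.74 (adjusted p = 0.416), *Cry1* at −0.58 (0.124), *Per3* at 0.52 (0.116) and *Per2* at 0.52 (0.0519). With only the 2 groups fitted, *Per3* and *Cry1* were not called (both 0.0848), nor was *Arntl* with thinned counts (0.0945). Leaving out av02 or av17 left 3, with *Arntl* at an adjusted p of 0.104 and 0.0648. Single mice that ended a call gave adjusted p of 0.0648 to 0.416 for *Arntl* (av02, av03, av04, av17, av19), 0.0625 to 0.124 for *Cry1* (av02, av04, av17, av19), 0.0655 to 0.116 for *Per3* (av01, av02, av19, av20) and 0.0519 to 0.0714 for *Per2* (av17, av19, av20).

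**Figure D2:**
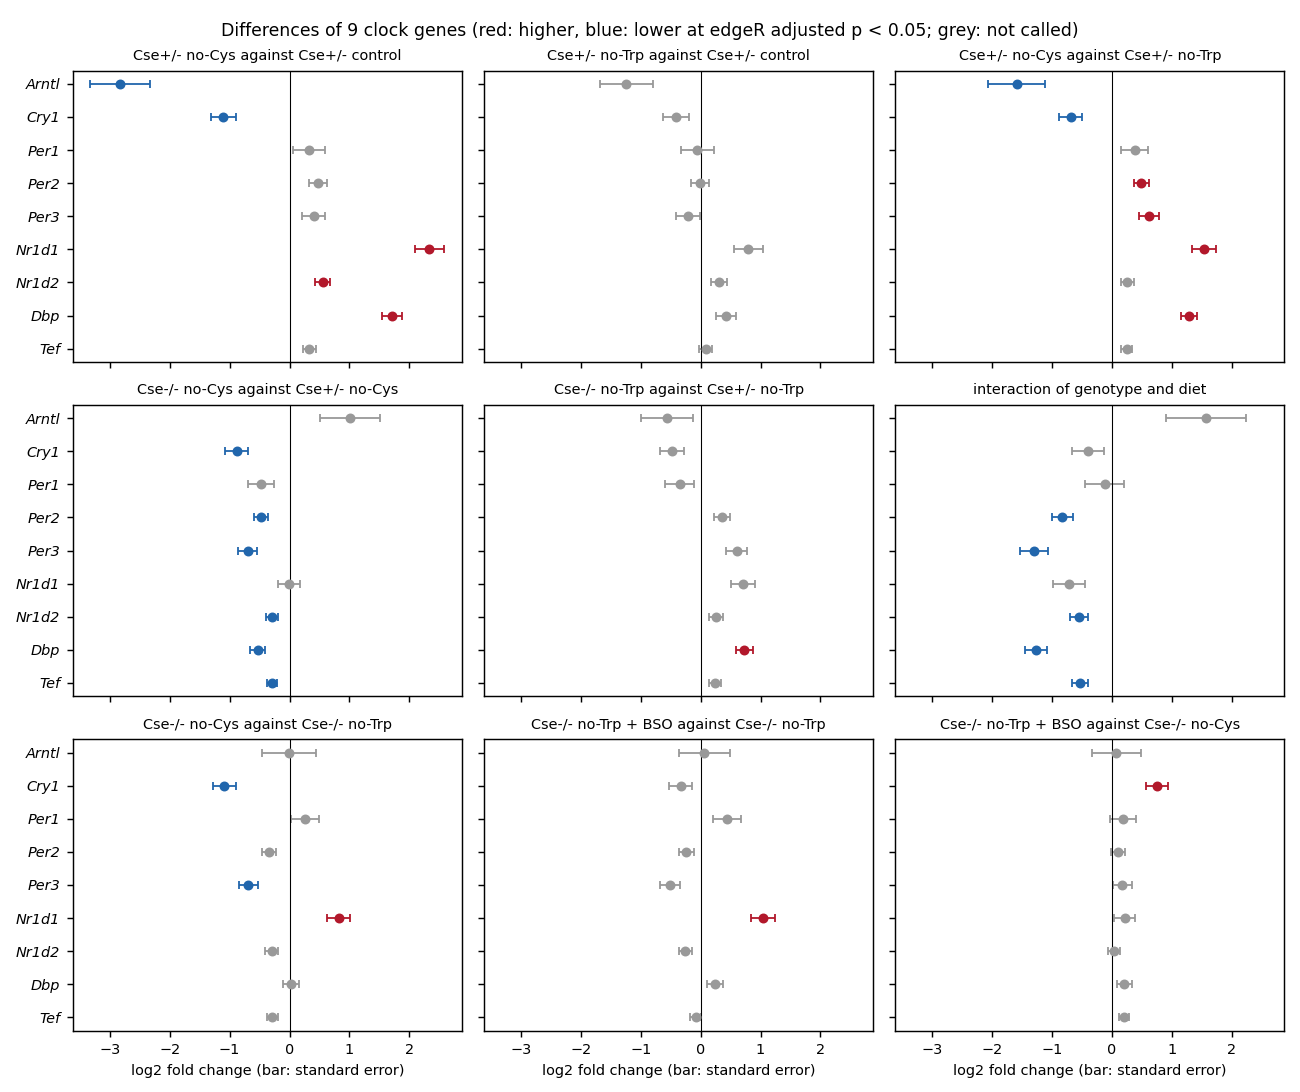
Log2 fold changes (horizontal axis) of the 9 tested clock genes in each of 9 comparisons, with standard errors as whiskers. Red and blue points were called higher and lower by edgeR and grey points were not called. Blue points fill most of the panel of genotype on no-Cys, and the panel of no-Cys against control shows the largest differences, for *Arntl* and *Nr1d1*.

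The genotype was then compared within the no-Cys diet, where *Cse*-/- mice cannot obtain cysteine from food or make it by this route. *Cry1*, *Per3*, *Dbp*, *Per2*, *Tef* and *Nr1d2* were lower in *Cse*-/- than in *Cse*+/- livers, 6 of 9, and none was called higher. Over all genes 12.2% were called lower and 23.8% in either direction. The median log2 difference of the 9 was −0.47, against −0.0093 over all genes. *Cry1* was at 6.02, 6.43, 7.16 and 9.24 CPM in *Cse*-/- livers. These lay just below the lowest *Cse*+/- no-Cys liver, at 9.60 CPM, and the log2 difference was −0.88 ± 0.19 (0.542 times, adjusted p = 0.00220). *Per3* (chr4:151003652-151044665) was at 41.7, 43.8, 50.5 and 56.2 CPM in *Cse*-/- livers and at 62.3, 66.6, 79.7 and 104 CPM in *Cse*+/- livers, with no overlap (−0.70 ± 0.15, adjusted p = 0.00276). *Per2* (chr1:91415982-91459324), a period gene whose mRNA also responds to glucocorticoids and feeding, was at 45.9, 55.2, 55.4 and 60.8 CPM in *Cse*-/- livers. The 4 *Cse*+/- livers were at 68.5, 73.8, 74.7 and 84.0 CPM, all higher (−0.47 ± 0.12, adjusted p = 0.00607).

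*Dbp* differed by −0.53 ± 0.12 (adjusted p = 0.00372), and its groups overlapped. The *Cse*-/- livers were at 102, 107, 121 and 151 CPM, and mouse av08 lay above the lowest *Cse*+/- liver, av01, at 137 CPM. *Tef* (chr15:81802421-81826863), which encodes a factor of the same family that binds the D-box, differed by −0.30 ± 0.09 (224 to 279 CPM against 298 to 330 CPM, adjusted p = 0.0174). *Tef* lost its call without av05 (adjusted p = 0.0846) and with no filter on low counts (0.0765). *Nr1d2* differed by −0.30 ± 0.10 (adjusted p = 0.0403), with groups that overlapped. Its call was lost without av01, av02, av03, av05, av06, av07 or av08, at adjusted p of 0.0636 to 0.116, and with no filter (0.0921) or thinned counts (0.0564).

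*Nr1d1* did not pass the test in that comparison and was widely spread. Its 4 *Cse*-/- no-Cys values, 50.4, 65.2, 88.1 and 120 CPM, spanned the 72.2 to 96.8 CPM of the *Cse*+/- livers (log2 difference −0.0093 ± 0.18, adjusted p = 0.979). *Per1* (chr11:69095217-69109960), the period gene that stress hormones and meals induce most quickly, was at 71.2 to 101 CPM in *Cse*-/- livers and at 99.0, 102, 102 and 163 CPM in *Cse*+/- livers (−0.47 ± 0.22, adjusted p = 0.118, and −0.27, 0.385, without av01, the highest). *Arntl* was at 0.434, 0.733, 0.959 and 1.30 CPM in *Cse*-/- livers, or 7 to 22 counts (1.01 ± 0.50, adjusted p = 0.149).

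Other measures moved with this genotype comparison. Summed hepatocyte markers were 37271 to 64601 CPM in *Cse*-/- livers and 81392 to 104963 CPM in *Cse*+/- livers. That sum is mostly *Alb*, which was lower with *Ttr* and *Apoa1* (log2 differences of −1.26, −1.04 and −0.77), whereas *Cps1*, the other marker summed, was higher (0.58 ± 0.20, adjusted p = 0.0457), a call lost without any 1 of 6 of the 8 mice (all but av01 and av07, 0.0589 to 0.136) and with only the 2 groups fitted (0.0747). Summed red-cell markers were 59.4 to 101 CPM and 172 to 363 CPM. Of all markers of cell types, those of red cells and lymphocytes included, 9 were called lower and 2 higher. Over all genes 12.2% were called lower and 23.8% in either direction. The 10 most abundant genes held 12.5 to 15.1% of counts in *Cse*-/- no-Cys livers and 16.8 to 18.7% in *Cse*+/- no-Cys livers. The part of these in the clock gene differences was not tested, and in bulk tissue fewer cells of a type and less RNA per cell cannot be told apart.

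Within the no-Trp diet, the same change of genotype gave 1 called clock gene, *Dbp*, where 2.64% of all genes were called. At an unadjusted p under 0.05 there were 7, where 18.4% of all genes were, *Dbp*, *Nr1d1*, *Per3*, *Per2*, *Tef* and *Nr1d2* higher and *Cry1* lower. *Dbp* was at 104, 122 and 127 CPM in *Cse*-/- livers and at 66.6, 67.2 and 79.0 CPM in *Cse*+/- livers, a log2 difference of 0.73 ± 0.14 (1.66-fold, adjusted p = 0.0101). The ranges did not overlap, and the call was lost without av19 (adjusted p = 0.0529). Without av14 or av15, the 2 *Cse*-/- no-Trp mice nearer to other groups, it was kept. *Nr1d1* was at 42.5, 45.8 and 48.9 CPM in *Cse*-/- livers against 25.7 to 29.2 CPM, and *Per3* at 66.0, 76.4 and 89.5 CPM against 44.0 to 58.8 CPM. Neither overlapped, and neither passed the test (0.71 ± 0.21, adjusted p = 0.0719, and 0.60 ± 0.18, adjusted p = 0.0727). DESeq2, which called 729 of 13897 genes, called both (0.0239 and 0.0271). *Per2* (0.36 ± 0.13, adjusted p = 0.147), *Tef* (0.23 ± 0.10, 0.210) and *Nr1d2* (0.25 ± 0.12, 0.248) did not overlap either, and *Cry1* did (−0.49 ± 0.20, 0.195). Groups this small can fail to overlap by chance, and the share of all genes that did so was not counted.

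Whether the genotype effect differed between the 2 diets was tested as an interaction, which uses no sample in both arms. *Per3*, *Dbp*, *Per2*, *Nr1d2* and *Tef* differed, 5 of 9, where 4.36% of all genes were called and 2.69% were called lower, and in each the effect on no-Cys was lower than that on no-Trp. The difference of the log2 effects was −1.30 ± 0.23 for *Per3* (adjusted p = 0.00407), −1.26 ± 0.19 for *Dbp* (0.00125) and −0.83 ± 0.18 for *Per2* (0.0111). These 3 genes were called whichever single mouse was left out. *Tef* (−0.53 ± 0.13, adjusted p = 0.0262) lost its call without av02, av05, av06, av07, av14 or av17, at adjusted p of 0.0529 to 0.0674, and 3 of 9 genes were then called. It was also lost with no filter (0.0732) or with only these groups fitted (0.0540). *Nr1d2* (−0.55 ± 0.15, adjusted p = 0.0483) lost it without any 1 of 13 of the 14 mice, at 0.0513 to 0.116, and among the mice left out kept it only without av04. It was also lost with upper-quartile scaling (0.0503), no filter (0.0731) or thinned counts (0.0638). *Nr1d1* (−0.72 ± 0.27, adjusted p = 0.144) passed without av08 (−0.97, adjusted p = 0.00810). *Arntl* (1.57 ± 0.66, adjusted p = 0.192) passed without av20 (1.98, adjusted p = 0.0477) and stood at 0.73 (0.586) without av19. Of the markers of cell types, *Alb* and *Ttr* of hepatocytes and *Alas2* of red cells were called lower in the interaction and *Lyve1* of endothelium higher, and none was called for genotype on no-Trp. Their part in these differences was not tested.

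Among *Cse*-/- mice, no-Cys and no-Trp were compared to ask what lack of cysteine adds to lack of an amino acid. These groups also enter the comparisons of genotype. *Cry1* and *Per3* were lower and *Nr1d1* was higher on no-Cys, 3 of 9, where 10.4% of all genes were called. *Cry1* fell by 1.09 ± 0.20 on the log2 scale (6.02 to 9.24 CPM against 12.5, 14.8 and 18.4 CPM, adjusted p = 0.00199). *Nr1d1* rose by 0.82 ± 0.19 (adjusted p = 0.0117, and 0.0909 with only the 2 groups fitted), with the lowest no-Cys liver, at 50.4 CPM, just above the highest no-Trp liver, at 48.9 CPM. *Per3* fell by 0.69 ± 0.16 (adjusted p = 0.0127). Without av14 only *Cry1* was called, and *Nr1d1* stood at an adjusted p of 0.0589 and *Per3* at 0.0763. Without av15, 4 were called, *Per2* among them (−0.44, adjusted p = 0.0419), and without av08 *Tef* was (−0.33, adjusted p = 0.0274). With all mice, *Tef* (−0.29 ± 0.09, adjusted p = 0.0546) was called with DESeq2 (0.0162), upper-quartile scaling (0.0489) and the filter on mean CPM (0.0472). The markers *Ttr*, *Apoa1* and *Alas2* were also called lower on no-Cys here (−0.64, −0.62 and −0.68), and their part was not tested.

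Adding BSO to the no-Trp diet, to block glutathione synthesis, went with 1 called clock gene in *Cse*-/- livers, where 0.793% of all genes were called. *Nr1d1* was at 84.9, 85.8, 97.8 and 108 CPM with BSO, all above the 42.5 to 48.9 CPM without it (1.04 ± 0.20 on the log2 scale, 2.06-fold, adjusted p = 0.0136). The call was lost without av09 (adjusted p = 0.0517), av14 (0.0559) or av15 (0.0601), with log2 differences of 0.98 to 1.03, and it was kept without av10. Against *Cse*-/- no-Cys livers, the BSO livers differed in 1 clock gene, where 2.75% of all genes were called. *Cry1* was at 10.1, 11.9, 12.4 and 14.1 CPM with no-Trp + BSO, above the 6.02 to 9.24 CPM on no-Cys (0.75 ± 0.18, adjusted p = 0.0348). That call was lost without av05, av06, av07, av09, av10, av11 or av12 (adjusted p of 0.0528 to 0.126). The markers *Apoa1*, *Ttr* and *Krt7* were also called higher with no-Trp + BSO than on no-Cys, and their part was not tested.

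In order of group means, *Nr1d1* rose from *Cse*+/- control (16.1 ± 0.745 CPM, SD) through *Cse*+/- no-Trp (28.0) and *Cse*-/- no-Trp (45.7 ± 3.23) to 3 groups that overlapped, *Cse*-/- no-Cys (80.9 ± 30.4), *Cse*+/- no-Cys (81.4 ± 10.7) and *Cse*-/- no-Trp + BSO (94.0 ± 10.8). The first 3 groups overlapped neither each other nor the rest. *Dbp* had the same 2 groups lowest, at 52.9 ± 2.97 and 70.9 ± 6.99 CPM, and *Cse*+/- no-Cys highest, at 174 ± 25.4 CPM. *Cry1* ran from 28.6 ± 0.0424 CPM in *Cse*+/- control to 7.21 ± 1.43 CPM in *Cse*-/- no-Cys, and these 2 end groups overlapped no other. Set against each other, after their values were seen and so with no test, the ratio of *Nr1d1* to *Cry1* CPM was 0.546 to 0.582 in control livers, 1.10 to 1.77 in *Cse*+/- no-Trp and 2.65 to 3.67 in *Cse*-/- no-Trp. It was 4.63 to 10.1 in *Cse*+/- no-Cys, 6.04 to 9.66 in *Cse*-/- no-Trp + BSO and 5.45 to 16.8 in *Cse*-/- no-Cys, and these 3 ranges overlapped. *Arntl* was highest in controls and overlapped between neighbours elsewhere. *Per1*, *Per2* and *Tef* overlapped between all neighbouring groups.

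**Figure D3:**
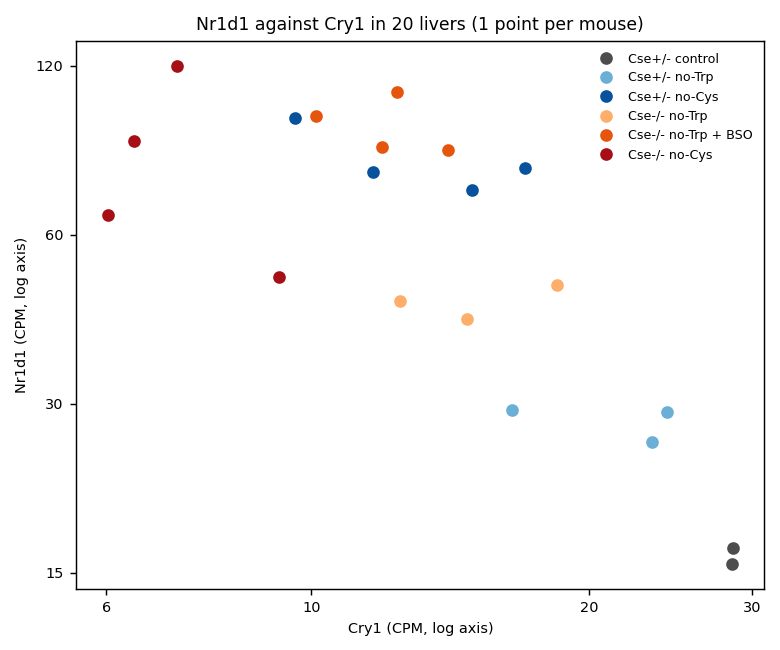
*Nr1d1* against *Cry1* in CPM, both on log axes, with 1 point per mouse coloured by group. Control livers lie at the lower right, near 28.6 CPM of *Cry1* and 16 CPM of *Nr1d1*, and *Cse*-/- no-Cys livers at the left.

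Of 8 other transcription factors of the clock, *Clock*, *Cry2*, *Rora*, *Bhlhe40*, *Bhlhe41*, *Nfil3*, *Hlf* and *Ciart*, 3 were lower in *Cse*-/- than in *Cse*+/- livers on no-Cys and none was higher (median log2 difference −0.21), where 12.2% of all genes were called lower. *Nfil3*, which competes with DBP for the D-box, fell by 1.05 ± 0.24 (adjusted p = 0.00327), and *Hlf*, a relative of DBP and TEF, fell by 0.88 ± 0.13 (adjusted p = 8.99e-05). *Bhlhe40*, an E-box repressor, fell by 0.67 ± 0.15 (adjusted p = 0.00263). *Clock*, the partner of BMAL1, had group means of 21.2 to 27.3 CPM. In *Cse*+/- mice on no-Cys against control, 2 of the 8 rose and 1 fell, where 2.18% of all genes were called (median 0.053). *Bhlhe41* rose by 2.20 ± 0.39 (2.16 ± 0.395 to 9.99 ± 2.27 CPM, SD, adjusted p = 0.00648) and *Bhlhe40* by 0.86 ± 0.18 (adjusted p = 0.0173). *Nfil3* fell by 1.63 ± 0.25 (adjusted p = 0.00255). Without the control mouse av22, which leaves 1 control liver, none of these 3 was called, at 0.65 for *Bhlhe40*, 2.03 for *Bhlhe41* and −1.09 for *Nfil3*. *Bhlhe40* was also not called with only the 2 groups fitted (adjusted p = 0.0509).

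**Figure D4:**
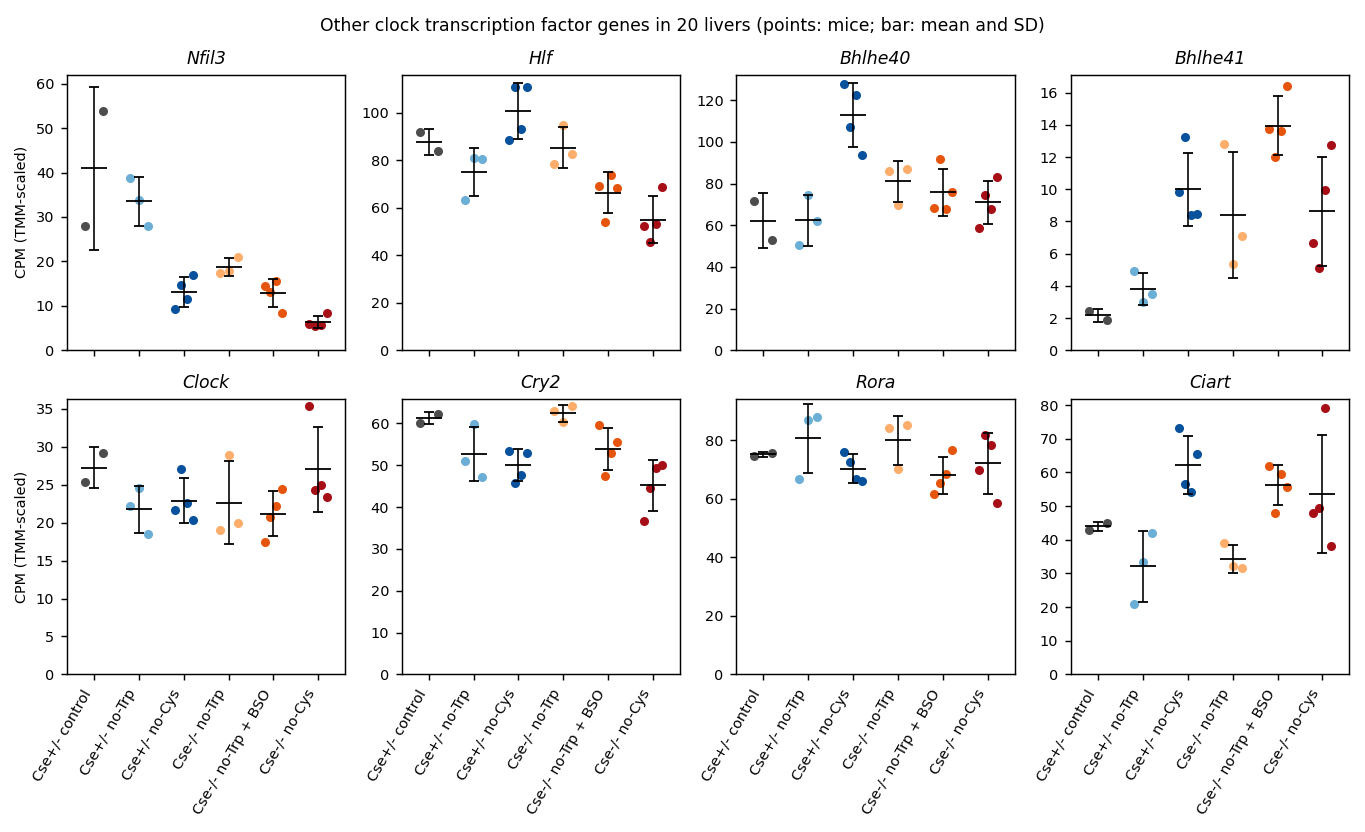
CPM (linear axes from 0) of 8 other clock transcription factor genes in each liver, with 1 point per mouse, the group mean as a horizontal bar and the SD as whiskers. Group means of *Nfil3* are highest in *Cse*+/- control livers and lowest in *Cse*-/- no-Cys livers, and *Clock* stays between 17.4 and 35.4 CPM.

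Among 8 kinases, ubiquitin ligases and a protease that set the stability of clock proteins, 3 were lower with loss of CSE on no-Cys, where 12.2% of all genes were (median log2 difference −0.035). They were *Fbxl21* (−0.79 ± 0.22, adjusted p = 0.0144) and *Btrc* (−0.38 ± 0.13, adjusted p = 0.0394), ligase subunits for CRY and PER proteins, and *Usp2* (−0.44 ± 0.16, adjusted p = 0.0481), a rhythmic deubiquitinase. *Fbxl21* lost its call without av04 (adjusted p = 0.0565), *Btrc* without any 1 of 6 mice (all but av01 and av08, 0.0528 to 0.140) and *Usp2* without any 1 of 7 (all but av06, 0.0577 to 0.179). With thinned counts *Btrc* (0.0621) and *Usp2* (0.0519) also lost it, as did *Btrc* with no filter (0.0810). Of 11 rhythmic output genes of the liver, 3 rose and 3 fell in that comparison, where 23.8% of all genes were called in either direction (median −0.078). *Cyp7a1*, the rate-limiting enzyme of bile acid synthesis, fell by 1.43 ± 0.51 (adjusted p = 0.0466) and *Elovl3*, a fatty acid elongase, fell by 1.24 ± 0.37 (adjusted p = 0.0192). *Cyp7a1* lost its call without av01 (−1.01), av03, av05, av06 or av07 (adjusted p of 0.0937 to 0.166), and *Elovl3* without av02 (0.0569). *Cyp7a1* also lost it with only the 2 groups fitted (0.0732). *Cyp2a4* and *Cyp2a5* rose by 2.41 ± 0.54 (adjusted p = 0.00313) and 2.25 ± 0.20 (adjusted p = 4.55e-07), and since these copies are nearly identical the split of reads between them is uncertain. In *Cse*+/- mice on no-Cys against control, 2 of the 11 were called, both lower (median −0.35), where 2.18% of all genes were called. *Nampt*, which makes a precursor of NAD, fell by 0.93 ± 0.14 (adjusted p = 0.00241) and *Por*, the electron donor of cytochrome P450 enzymes, fell by 0.97 ± 0.20 (adjusted p = 0.0138). Neither was called without av22, which leaves 1 control liver, at −0.85 for *Nampt* and −0.90 for *Por*. *Por* was also not called with only the 2 groups fitted (adjusted p = 0.0777). Of the kinases, ligases and protease, *Fbxl21* was called there, higher by 1.11 ± 0.29 (adjusted p = 0.0467), and not without av02, av03, av04, av21 or av22 (0.0582 to 0.510) or under 3 other settings (0.0506 to 0.116).

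Genes that follow meals, stress hormones and body temperature, signals that set the liver clock, were read in the same livers. In the comparison of genotype on no-Cys, 23.8% of all genes were called in either direction. Of 9 genes induced by fasting, 1 was called with loss of CSE on no-Cys, *Igfbp1*, which rose (1.26 ± 0.36, adjusted p = 0.0143). *Igfbp1* lost its call without av05 (adjusted p = 0.0619) or av06 (0.0511). Of 6 genes induced by feeding, 3 fell, the lipogenic regulator *Srebf1* (−1.69 ± 0.27, adjusted p = 0.000225), *Fasn*, fatty acid synthase (−1.04 ± 0.20, adjusted p = 0.000853), and *Pnpla3* (−2.08 ± 0.46, adjusted p = 0.00294). Of 6 glucocorticoid targets, *Zbtb16* rose (1.66 ± 0.38, adjusted p = 0.00354) and *Tsc22d3* (−1.40 ± 0.28, adjusted p = 0.00119) and *Sgk1* (−0.67 ± 0.17, adjusted p = 0.00821) fell. Of 6 temperature-responsive genes, the chaperone genes *Hsph1* and *Dnajb1* rose, with log2 differences of 0.85 ± 0.23 (adjusted p = 0.011) and 0.63 ± 0.17 (adjusted p = 0.0112). In *Cse*+/- mice on no-Cys against control, *Igfbp1* fell by 2.11 ± 0.41 (adjusted p = 0.0117) and the feeding-induced *Fasn* (1.07 ± 0.25, adjusted p = 0.0271) and *Me1* (1.22 ± 0.27, adjusted p = 0.0187) rose. All 3 calls were lost without av22, which leaves 1 control liver, where *Igfbp1* stood at −1.09, *Fasn* at 0.99 and *Me1* at 1.28. Those of *Fasn* and *Me1* were also lost without av21, the other control mouse, and without av02 (adjusted p = 0.0678 and 0.0515). With only the 2 groups fitted, *Me1* was not called (0.0677). The glucocorticoid target *Fkbp5* fell by 1.07 ± 0.26 (adjusted p = 0.0374). Its call was lost without av02, av03 or av04 (0.0524 to 0.0801), without av22 and with only the 2 groups fitted (0.170). The heat shock gene *Hspa1b* rose by 2.55 ± 0.56 (adjusted p = 0.0187), and its reads may be split with its near-identical copy *Hspa1a*. Its call was lost without av21 or av22, each of which leaves 1 control liver, and with only the 2 groups fitted (0.0812). In that comparison 2.18% of all genes were called. Between no-Cys and no-Trp in *Cse*+/- mice, with no control livers involved, 8.04% of all genes were called. Of the feeding-induced genes, 2 of 6 were called there, both higher on no-Cys, and of those induced by fasting 1 of 9, also higher. Of 6 glucocorticoid targets, 1 was higher and 1 lower, and 0 of 6 temperature-responsive genes were called. The part of feeding, hormones and temperature in the clock gene differences was not tested.

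Some clock genes share exon bases with a gene on the opposite strand, and how the counting treated strand is not known here. Of *Dbp* exon bases, 18.0% lie in *Sphk2*, a sphingosine kinase gene. *Sphk2* fell by 0.98 ± 0.15 in *Cse*+/- livers on no-Cys against control (adjusted p = 0.00241), where *Dbp* rose, though that call was lost without av22 (adjusted p = 0.0717), and it rose by 0.78 ± 0.13 with loss of CSE on no-Cys (adjusted p = 0.000278), where *Dbp* fell. For genotype on no-Trp, where *Dbp* was called higher, *Sphk2* differed by 0.14 ± 0.14 (adjusted p = 0.649). Of *Nr1d1* exon bases, 8.55% lie in *Thra*, a thyroid hormone receptor gene, which was at group means of 11.4 to 13.7 CPM with adjusted p of 0.236 to 0.992 in the 9 comparisons. *Tef* shares 2.45% with *Gm17597*, whose group means were at most 0.682 CPM, and *Arntl* 0.439% with *Gm45355*.

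Likeness of pattern was measured as Pearson's r of log2 CPM over the 20 libraries, which share their groups, as a description. The genes most like *Dbp* were *Prkd3* (r = 0.921), *Tbcel* (0.892) and the clock factor *Bhlhe41* (0.877). The genes most like *Arntl* were *Cdk18* (0.866), *Aass* (0.850) and *Gpat4* (0.844). With each group's mean subtracted, which leaves the spread between mice of a group, the leading genes were others, *Pold2* (0.865) for *Dbp* and *P2ry2* (0.884) for *Arntl*.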

How the data were processed

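The counts of reads per gene are as the authors deposited them: paired-end poly(A) reads were aligned to GRCm38 with Hisat2 2.1.0 and counted with htseq-count 0.11.0, without normalization. Neither the annotation release nor the strand setting is given in the sources used here. Symbols, coordinates and exon lengths come from GENCODE M21 on GRCm38. Columns are headed by mouse numbers, and their groups follow the study's list of mice, since the sample labels give no mouse numbers. Of 21 columns, 1 was not used. The 10 clock genes and the gene lists were chosen with earlier results of these data known.

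Tests used edgeR 4.0.16 (R 4.3.3, limma 3.58.1) with TMM scaling. filterByExpr (minimum count 10, minimum total 15) left 14759 genes, and all 20 libraries entered 1 quasi-likelihood fit of the 6 group means. The Benjamini-Hochberg adjustment of two-sided p-values ran over all genes tested. Standard errors were taken from the log2 fold change and its F statistic (size over root F). CPM are TMM-scaled. Data were simulated for the genotype comparison on no-Cys, with 1 spread for all genes and only those 2 groups fitted, and 13091 genes were kept. That fit recovered 90 of 97 genes changed 2-fold and 100 of 100 changed 4-fold, with 12 false calls. The clock genes called in that comparison differed by less than 2-fold, which the simulation did not cover. Libraries of 1 group differed by more than counting noise in all 25 pairs (chi-square per gene of 9.60 to 64.2, for genes whose pair held 20 counts or more). Per the labels, the genotypes did not share cages during food restriction. Cages of single mice are not stated, so p-values measure the spread between these mice.

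Besides the members, named genes are up to 4 called genes per list with the largest log2 fold change between genotypes on no-Cys. From these lists, 2 genes are not reported here. Genes named for *Cse*+/- mice on no-Cys against control, such as *Bhlhe41*, *Me1*, *Nampt*, *Por*, *Fkbp5* and *Hspa1b*, were chosen after their values were seen, and *Sphk2*, *Thra* and *Gm17597* for their overlap. Alternatives were DESeq2 1.42.0, RLE and upper-quartile scaling, testing with no filter, a filter at a mean CPM of 1, fitting the compared groups alone, a threshold of 0.01, counts thinned to 11785740 per library, and leaving out each mouse. Figures used Python 3.11.15 with matplotlib 3.10.9.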

Additional observations from a re-analysis of the deposited data

Results flagged for a closer look

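In 7 of 93 groups of 4 livers checked, 1 liver lay far from the other 3 by Dixon's gap criterion, where chance gives about 1 in 20. Among the clock genes, *Per1* was at 163 CPM in mouse av01 (*Cse*+/- no-Cys), with 99.0 to 102 CPM in the rest of its group. In mouse av10 (*Cse*-/- no-Trp + BSO), *Per2* was at 44.9 CPM and *Tef* at 266 CPM, each the lowest of its group. *Nfil3* was at 8.49 CPM and the glucocorticoid target *Sgk1* at 11.5 CPM in mouse av08 (*Cse*-/- no-Cys). *Cyp2a4* was at 13.3 CPM and *Igfbp1* at 315 CPM in mouse av12 (*Cse*-/- no-Trp + BSO).

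The effect of genotype differed between the diets by the interaction test for several genes. The effect on no-Cys minus that on no-Trp, on the log2 scale, was −1.30 for *Per3*, −1.26 for *Dbp*, −0.83 for *Per2*, −0.55 for *Nr1d2* and −0.53 for *Tef*. It was −1.06 for *Hlf* and −1.04 for *Bhlhe40* among the other clock factors, 1.79 for the output gene *Cyp2a5*, and −1.98 for *Srebf1* and −1.51 for *Fasn* among genes induced by feeding.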

How the results depend on the processing

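Over 427 repeats of called log2 fold changes under the alternatives, 353 stayed called in the same direction, 74 lost the call and none reversed. Of 750 repeats of values not called, 710 stayed so, 14 gained a call and 26 reversed. For genotype on no-Trp, the clock genes called went from 1 to 3 with no filter on low counts, 2 with only the groups compared, 3 with DESeq2 and 0 at a threshold of 0.01. Over all genes these settings called 570 of 27464, 83 of 14281, 729 of 13897 and 72 of 14759. For the interaction they went from 5 to 3 with no filter and 2 at 0.01. For no-Cys against no-Trp they went from 3 to 1 at 0.01 in *Cse*-/- mice, and in *Cse*+/- mice from 6 to 3 with only the groups compared, which tested 8 of the genes, and 2 at 0.01. At 0.01, both BSO comparisons went from 1 to 0 and the test for any difference from 8 to 5. The cause of these was not tested, beyond the stricter threshold itself. Leaving out each mouse in turn gave 4 to 6 called genes for genotype on no-Cys, 0 to 1 for genotype on no-Trp, 3 to 5 for the interaction, 1 to 4 for no-Cys against no-Trp in *Cse*-/- mice, 0 to 1 for each BSO comparison, 2 to 5 for no-Cys against control, 0 to 0 for no-Trp against control, 2 to 5 for no-Cys against no-Trp in *Cse*+/- mice and 7 to 9 for any difference. Without 1 of the 2 control mice, the spread of the remaining one comes from the other groups. *Per2* on no-Trp against control (−0.011) turned to 0.0047 with no filter, 0.0026 with only the groups compared and 0.0061 with thinned counts. Other log2 fold changes that changed sign were not called, and their range over mice left out follows. For genotype on no-Cys it was *Nr1d1* −0.26 to 0.16. For genotype on no-Trp it was *Arntl* −0.97 to 0.28. In the interaction it was *Per1* −0.32 to 0.19. For no-Cys against no-Trp in *Cse*-/- mice it was *Arntl* −0.31 to 0.22 and *Dbp* −0.10 to 0.10. For BSO against no-Trp it was *Arntl* −0.20 to 0.28. For BSO against no-Cys it was *Arntl* −0.16 to 0.37 and *Nr1d2* −0.035 to 0.13. For no-Trp against control it was *Per1* −0.25 to 0.26, *Per2* −0.10 to 0.10 and *Tef* −0.033 to 0.22. For genes named as called outside the clock members in 3 comparisons, the same settings were applied after their values were seen, and none of these log2 differences changed sign. Of 24 called for genotype on no-Cys, 17 stayed called throughout, as did all 5 named for the interaction that are not markers of cell types. None of the 12 named for no-Cys against control did, as each lost its call without av22. That fit leaves 1 control liver and called fewer genes of all kinds, so it says little of single genes. No paired analysis was possible because the columns carry no replicate numbers. Depth limits *Arntl*, with 4 to 94 counts per library, and *Npas2*, with 0 to 14.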
